A study of Homo sapiens with 48 samples.

Results

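MITF, its relatives TFEB, TFE3 and TFEC, and the coactivator gene PPARGC1A were followed through 48 RNA sequencing libraries of 3 uveal melanoma cell lines. These 5 genes were taken by symbol from the 58870 genes counted in each library. Lines 92-1, MEL202 and MP41 were each given FHT-1015, which inhibits both ATPases of the BAF chromatin remodelling complexes (SMARCA4 and SMARCA2), or DMSO alone, for 4 or 24 h. IDE196, which blocks protein kinase C, was given to 92-1 at those times as well, beside DMSO libraries of its own. There were 16 groups of 3 libraries, labelled as biological replicates, and the labels give no doses. A line and drug with its DMSO libraries, 12 in all, is called an experiment. The genotypes of the lines are not given in the labels, and none of the groups carries an engineered allele. The cells are whole cultures, so fewer cells of a kind and less RNA per cell cannot be told apart.

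MITF, TFEB, TFE3 and TFEC form the MiT family of basic helix-loop-helix leucine zipper factors, which bind as homodimers or as heterodimers with each other to E-box sequences such as CACGTG and CATGTG. In melanocytes MITF drives the pigment genes and is needed for survival of the lineage. TFEB and TFE3 are best known as activators of lysosome and autophagy genes, and kinase signalling at the lysosome holds them in the cytoplasm, a control of the protein that RNA counts do not show. PPARGC1A encodes PGC-1 alpha, a coactivator of mitochondrial biogenesis and oxidative metabolism, and it is a known target of MITF in cutaneous melanoma.

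MITF (ENSG00000187098.15) lies on chromosome 3 from 69739435 to 69968337 (GRCh38, plus strand) and has 18 annotated transcripts with 15 start positions. TFEB (ENSG00000112561.18) lies on chromosome 6 from 41683978 to 41736259, TFE3 (ENSG00000068323.17) on chromosome X from 49028726 to 49043486, TFEC (ENSG00000105967.16) on chromosome 7 from 115935148 to 116159896 and PPARGC1A (ENSG00000109819.9) on chromosome 4 from 23755041 to 23904089, these 4 on the minus strand. No other annotated gene shares exon bases with any of them. The counts are per gene, so transcripts from different starts were summed.

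The melanocyte form, MITF-M, starts at an internal promoter, and the 250 bases before that start are shown because, of the 3 MITF windows in the table, this one alone holds an element marked here. The PPARGC1A windows lie before RefSeq starts far apart, one outside and one within the annotated gene. Both are shown because each holds an E-box type hexamer. Coding transcripts of PPARGC1A that start at 23890077 have no window, so the bases before that start were not searched. The coding transcript PPARGC1A-217 starts at 23881292, inside the internal window. Capitals mark TGACGTCA, the palindromic cyclic AMP response element, in MITF, CACGTG in the distal PPARGC1A window and CATGTG in the internal one.

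MITF-M promoter, chr3:69936342-69936591, plus strand: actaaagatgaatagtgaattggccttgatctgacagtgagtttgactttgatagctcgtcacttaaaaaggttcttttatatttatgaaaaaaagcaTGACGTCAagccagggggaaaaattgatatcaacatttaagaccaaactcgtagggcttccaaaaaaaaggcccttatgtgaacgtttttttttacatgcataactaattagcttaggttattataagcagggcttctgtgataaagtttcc

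PPARGC1A distal promoter, chr4:24472906-24473155, minus strand: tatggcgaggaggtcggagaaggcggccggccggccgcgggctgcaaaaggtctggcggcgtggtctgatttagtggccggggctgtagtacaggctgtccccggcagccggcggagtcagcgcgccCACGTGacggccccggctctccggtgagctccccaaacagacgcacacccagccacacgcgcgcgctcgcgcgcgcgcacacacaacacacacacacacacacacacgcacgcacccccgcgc

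PPARGC1A internal promoter, chr4:23881102-23881351, minus strand: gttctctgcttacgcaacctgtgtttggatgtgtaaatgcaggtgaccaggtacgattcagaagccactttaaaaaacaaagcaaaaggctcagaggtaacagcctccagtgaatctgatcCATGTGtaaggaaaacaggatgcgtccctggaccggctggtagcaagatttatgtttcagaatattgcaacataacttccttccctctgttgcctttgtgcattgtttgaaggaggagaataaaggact

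The sequences are from RefSeq on GRCh38.p14, read 5′ to 3′ on the strand of the gene. All 5 genes matched an entry, with 11 windows between them. The cyclic AMP response element begins at position -152 of the MITF-M window, CACGTG at -123 and CATGTG at -129 of the PPARGC1A windows, where -1 is the last base before the start. Searched on both strands over 35116 promoter windows of this length, TGACGTCA was present in 1.646%, CACGTG in 6.345% and CATGTG in 9.417%; none of these hexamers or the octamer contains another. The SOX core sequences ACAAT and ACAAAG, present in 24.627% and 13.717% of windows, were also searched, and the MITF-M window holds neither. The other 8 windows (2 of MITF, 3 of TFEB, 2 of TFEC and 1 of TFE3) hold no TGACGTCA, CACGTG or CATGTG. A match is a description of letters and not evidence of a bound site. The MITF-M window has 34.8% G and C, the distal PPARGC1A window 70.8% and the internal one 44.0%.

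A library held between 11394088 and 32317711 reads assigned to genes. MITF had 1383 to 14389 reads in a library, TFE3 445 to 1725, PPARGC1A 14 to 611, TFEB 7 to 193 and TFEC 0 to 27. Levels are given as CPM, the reads of a gene scaled to a common library size with TMM factors. Of 8 melanocyte lineage markers, SOX10, PAX3, PMEL, MLANA, TYR, TYRP1 and GPR143 were expressed in DMSO in each line, while DCT reached only 1.55 CPM in MEL202 DMSO libraries. The 8 markers of other cell types reported here summed to 1.80 to 42.7 CPM in 47 libraries. Replicate 2 of 92-1 with FHT-1015 at 4 h stood apart with a sum of 89.4 CPM, almost all of it ALB (albumin) at 83.4 CPM, and 5 more liver genes looked up afterwards (APOA1, APOA2, FGA, FGB and HP) had 6.10 to 20.7 CPM there against at most 0.723 CPM in the other 47 libraries. Liver expresses PPARGC1A, so several 4 h results of 92-1 are also given without this library. Other 92-1 values at 4 h include it. In edgeR fits of the members without it, each result kept its direction and side of the 0.05 threshold. Values are given for 19 list genes in 92-1 with FHT-1015 at 4 h. Without that library 17 were still called and all 19 had the same sign.

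In DMSO, MITF was the most abundant of the 5 genes per length of exon in each line. In FPKM, which is CPM per kilobase of exon, MITF stood at 54.0 ± 6.21 in 92-1, 47.2 ± 10.8 in MEL202 and 52.0 ± 15.6 in MP41 (SD, n = 6, both times). TFE3 followed with 7.25 ± 0.55, 11.5 ± 2.05 and 17.9 ± 2.37 FPKM. TFEB and PPARGC1A were under 2.31 FPKM in each of these libraries. TFEB had 0.443 ± 0.158, 0.993 ± 0.372 and 0.648 ± 0.328 FPKM, and PPARGC1A 0.330 ± 0.025, 0.542 ± 0.206 and 1.38 ± 0.69 FPKM. With both times together the libraries of TFEB and PPARGC1A overlapped in 92-1 and MEL202, so their order there is not settled by the spread. In MP41 each PPARGC1A library lay above each TFEB library of the same time.

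By edgeR MITF was the member with no DMSO difference called between lines, each line being measured in a library set of its own. The log2 difference was -0.18 (SE 0.14) for MEL202 against 92-1, -0.06 (SE 0.14) for MP41 against 92-1 and 0.12 (SE 0.14) for MP41 against MEL202 (edgeR adjusted p = 0.299, 0.736 and 0.487). TFE3 was higher than in 92-1 both in MEL202 (0.69, SE 0.10, adjusted p = 1.39e-06) and in MP41 (1.33, SE 0.10, adjusted p = 1.31e-12). PPARGC1A had the same order, with MEL202 0.71 (adjusted p = 0.00823) and MP41 1.94 (adjusted p = 4.84e-09) above 92-1. TFEB was highest in MEL202, 1.21 above 92-1 (adjusted p = 7.59e-05) and with MP41 minus MEL202 at -0.73 (adjusted p = 0.00776), and the latter call was lost without replicate 1 of MEL202 DMSO at 4 h (-0.53, adjusted p = 0.0513). Among all genes tested 52.9%, 65.0% and 56.0% were called in the 3 pairs of lines, so calls on 3, 2 and 3 of the 4 members tested are near the background. Between the DMSO sets of 92-1 itself 60.4% of all genes were called. MITF differed there by 0.51 (adjusted p = 3.88e-06) and TFE3 by 0.23 (adjusted p = 0.0056). Line and library set therefore cannot be told apart in these levels.

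MITF fell with FHT-1015 at 24 h in the 3 lines, and at 4 h none of its changes was called by edgeR. In 92-1 its libraries held 380.3, 390.5 and 364 CPM in DMSO at 4 h and 359, 302 and 236 CPM with FHT-1015. At 24 h they held 471, 340.1 and 381 CPM in DMSO and 129.5, 109.8 and 127.9 CPM with the drug. The treated libraries lay below every DMSO library at both times, narrowly at 4 h and widely at 24 h. On the log2 scale the change was -0.32 (SE 0.13, adjusted p = 0.0719) at 4 h and -1.65 (SE 0.13, adjusted p = 3.4e-08) at 24 h, where MITF was 3.13-fold lower. Without the library holding liver genes the 4 h value was -0.32 (adjusted p = 0.142), and leaving out FHT-1015 replicate 1 at 4 h gave -0.47, which was called (adjusted p = 0.00928). The 4 h value was also called by limma-voom (-0.31, adjusted p = 0.00655), without the filter on low counts (-0.30, adjusted p = 0.0247) and with a replicate block (-0.34, adjusted p = 0.0177).

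MEL202 showed no early shift of MITF. Its libraries held 234, 361 and 277 CPM in DMSO and 358, 235 and 265 CPM with FHT-1015 at 4 h, so the groups overlapped fully. At 24 h DMSO held 315, 429 and 416 CPM and FHT-1015 95.5, 90.6 and 112.6 CPM. The treated libraries at 24 h were thus all far below the lowest DMSO library. This came to a log2 fold change of -0.02 (SE 0.23, adjusted p = 0.996) at 4 h and -1.91 (SE 0.23, adjusted p = 1.06e-04) at 24 h, a 3.76-fold fall.

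MP41 had the numerically deepest fall of MITF at 24 h. In a joint fit of the lines its difference from MEL202 was not called (-0.70, SE 0.29, edgeR adjusted p = 0.158). MP41 libraries held 297, 320 and 289 CPM in DMSO and 148, 259 and 209.9 CPM with FHT-1015 at 4 h. The DMSO libraries at 24 h held 368, 377 and 589.8 CPM, with replicate 3 well above the others, and FHT-1015 71.4, 65.1 and 75.1 CPM. No treated library reached a DMSO library at either time. By edgeR the log2 fold change was -0.55 (adjusted p = 0.622) at 4 h and -2.56 (SE 0.22, adjusted p = 1.94e-06) at 24 h, a 5.90-fold fall. The 4 h value was called by limma-voom with quality weights (-0.52, adjusted p = 0.00962).

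IDE196 gave MITF the opposite time course in 92-1, a fall at 4 h and no change called at 24 h. At 4 h the DMSO libraries of this set held 554, 538 and 529.7 CPM and the IDE196 libraries 372, 378 and 329.5 CPM. At 24 h DMSO held 627, 629.5 and 534 CPM and IDE196 645, 596 and 627 CPM. The groups were apart at 4 h and overlapped at 24 h. The log2 fold change was -0.56 (SE 0.09, adjusted p = 2.09e-04) at 4 h and 0.10 (adjusted p = 0.356) at 24 h. In one fit of all 48 libraries the 4 h value was -0.55 and not called (adjusted p = 0.0742). These DMSO libraries held more MITF than the other DMSO set of 92-1 by 0.51 on the log2 scale (adjusted p = 3.88e-06), where 60.4% of all genes differed between the sets, so each drug is set only against its own DMSO.

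**Figure D1:**
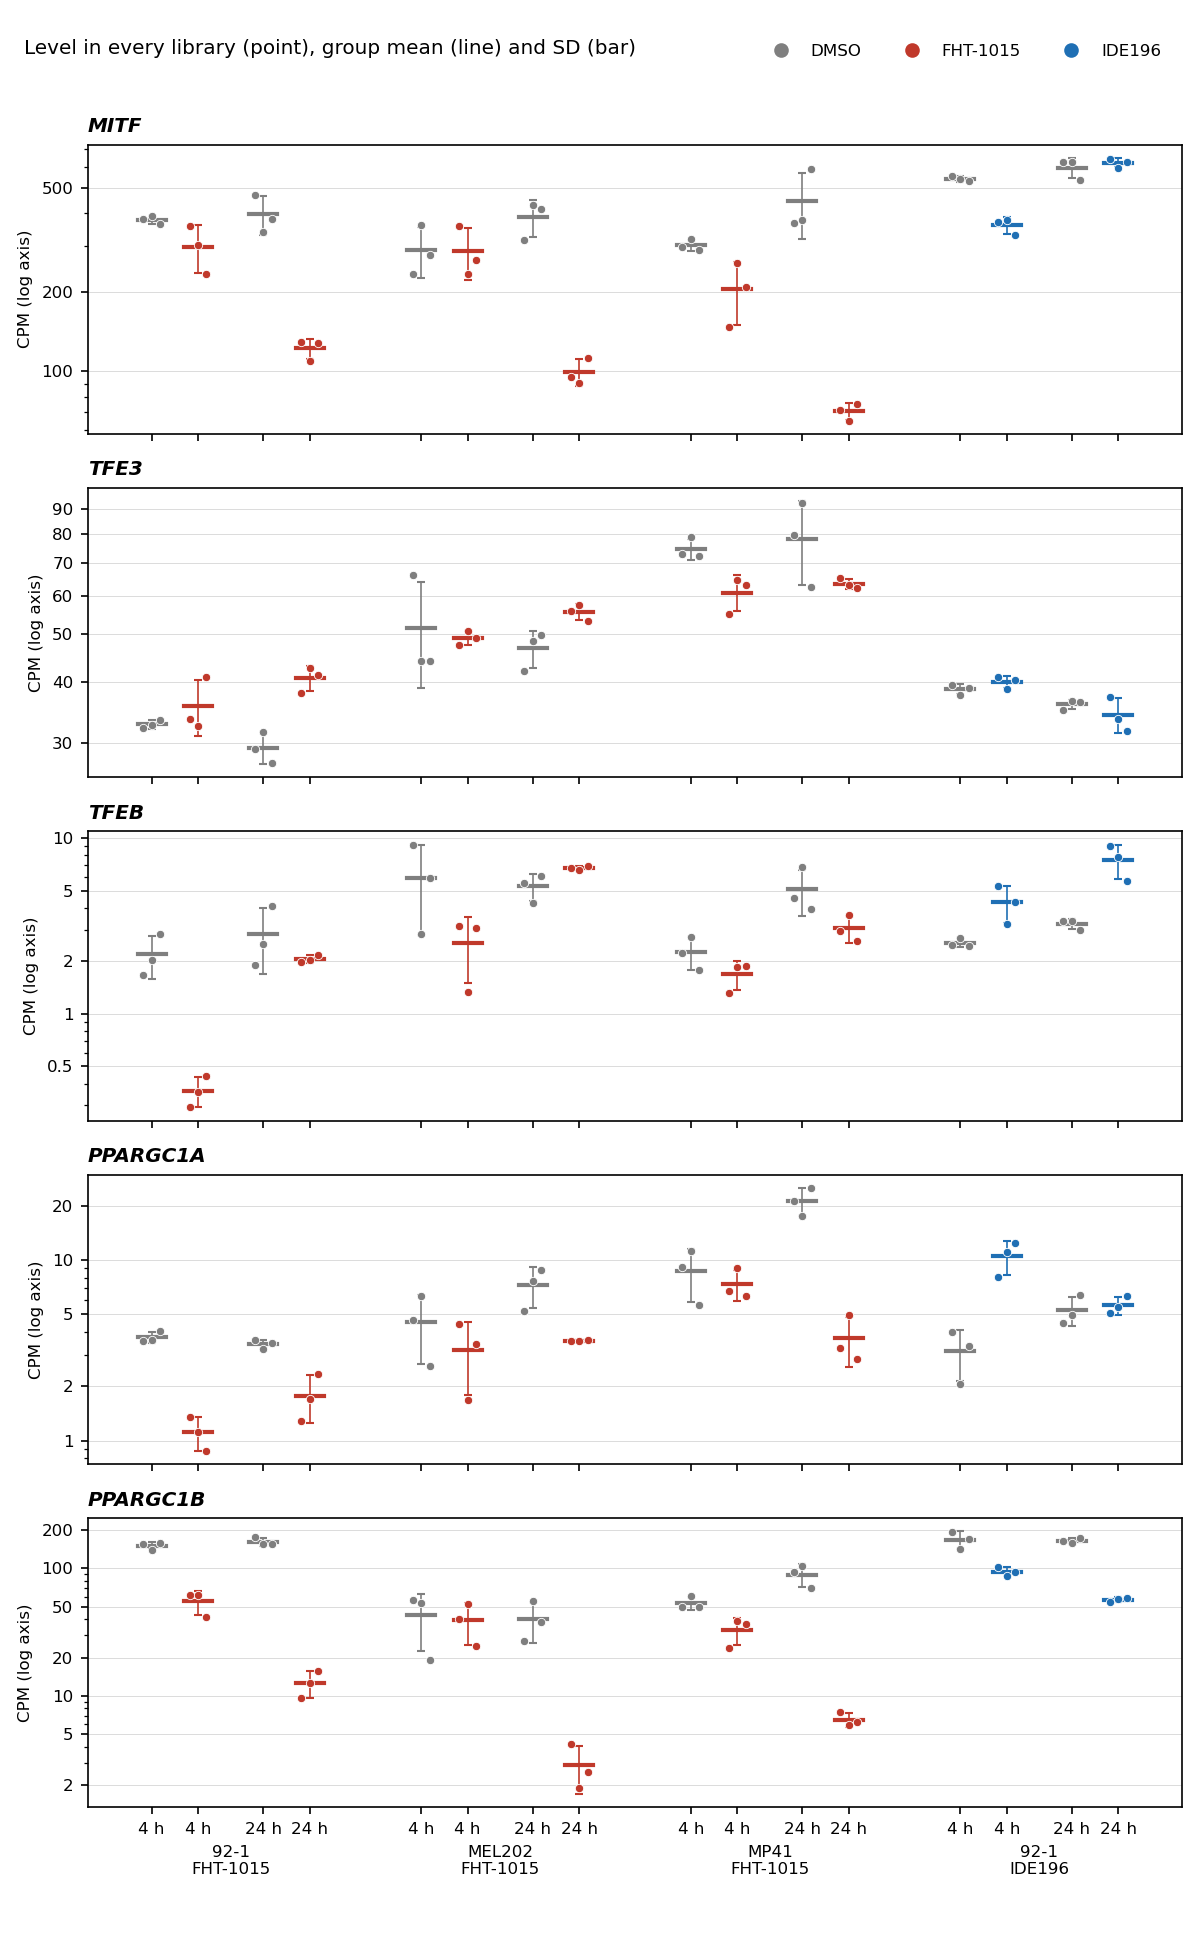
Level of each gene in CPM (log axis) in every library, by experiment, time and treatment; points are libraries, lines group means and bars SD (n = 3), with DMSO grey, FHT-1015 red and IDE196 blue. MITF and PPARGC1B with FHT-1015 at 24 h lie below all DMSO libraries of the 3 lines, while PPARGC1A with IDE196 at 4 h lies above its DMSO libraries.

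TFE3, the most abundant relative of MITF, moved little. In 92-1 at 24 h DMSO held 29.2, 31.6 and 27.3 CPM and FHT-1015 38.0, 42.7 and 41.2 CPM, with every treated library above every DMSO library. This was a rise of 0.52 on the log2 scale (SE 0.11, adjusted p = 6.76e-04). In MEL202 at 24 h DMSO held 42.2, 48.4 and 49.8 CPM and FHT-1015 55.9, 57.4 and 53.3 CPM, again without overlap, but the log2 fold change of 0.30 did not pass the threshold (adjusted p = 0.332), although limma-voom called it (0.25, adjusted p = 0.0247). In MP41 at 24 h DMSO held 79.9, 92.8 and 62.4 CPM and FHT-1015 65.1, 63.1 and 62.2 CPM (-0.20, adjusted p = 0.314). Without replicate 3 of the MP41 DMSO libraries at 24 h that value was -0.40 and called (adjusted p = 0.0217), as it was by limma-voom (-0.25, adjusted p = 0.0230). At 4 h no comparison of TFE3 was called by edgeR, with log2 fold changes of 0.14, -0.05 and -0.29 for FHT-1015 in 92-1, MEL202 and MP41 and 0.08 for IDE196. The 92-1 value was 0.21 without the library holding liver genes (adjusted p = 0.230), 0.027 without FHT-1015 replicate 3 at 4 h and 0.042 by limma-voom. IDE196 at 24 h gave -0.04 (adjusted p = 0.747).

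TFEB had the sharpest early fall of the family, in 92-1. At 4 h DMSO held 1.67, 2.02 and 2.83 CPM, from 29, 37 and 46 reads, and FHT-1015 0.296, 0.359 and 0.440 CPM, from 7, 8 and 7 reads. The treated libraries all lay far below DMSO, although with so few reads counting error alone is wide. By edgeR the log2 fold change was -2.55 (SE 0.38, adjusted p = 1.05e-04), a 5.87-fold fall, and -2.55 (adjusted p = 0.00102) without the library holding liver genes. At 24 h the groups overlapped, with 1.89, 2.49 and 4.10 CPM in DMSO and 1.95, 2.01 and 2.16 CPM with FHT-1015 (-0.41, adjusted p = 0.26). That value was -0.66 without DMSO replicate 1 (adjusted p = 0.0742) and -0.05 without DMSO replicate 3 at 24 h (adjusted p = 0.931). The 24 h effect was higher than the 4 h effect by 2.15 (SE 0.49, adjusted p = 0.00219), and by 2.13 (adjusted p = 0.0076) without the library holding liver genes.

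In MEL202 TFEB varied widely in DMSO at 4 h, with 9.10, 2.83 and 5.87 CPM against 3.16, 1.33 and 3.06 CPM with FHT-1015. The log2 fold change of -1.24 (SE 0.39) had an adjusted p of 0.251. It ranged from -1.57 without DMSO replicate 2 to -0.795 without DMSO replicate 1 at 4 h, was -0.62 by limma-voom, and was called in one fit of all 48 libraries (-1.21, adjusted p = 0.0130). At 24 h the treated libraries, at 6.70, 6.54 and 6.90 CPM, lay just above DMSO at 5.53, 4.27 and 6.04 CPM (0.40, adjusted p = 0.53). In MP41 TFEB had 2.22, 2.72 and 1.77 CPM in DMSO and 1.32, 1.84 and 1.86 CPM with FHT-1015 at 4 h (-0.40, adjusted p = 1). At 24 h it had 4.52, 6.79 and 3.94 CPM in DMSO and 2.94, 3.63 and 2.58 CPM with FHT-1015, all treated libraries lower, and a log2 fold change of -0.62 (adjusted p = 0.0796), which limma-voom called (-0.53, adjusted p = 0.0326).

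By edgeR IDE196 raised TFEB at both times, with the 4 h call depending on the fit. At 4 h DMSO held 2.45, 2.70 and 2.43 CPM and IDE196 5.28, 3.24 and 4.33 CPM. The DMSO libraries at 24 h held 3.35, 3.35 and 3.00 CPM and IDE196 8.98, 7.78 and 5.71 CPM. Every treated library was above every DMSO library at both times. The log2 fold change was 0.79 (SE 0.22, adjusted p = 0.0194) at 4 h, which was lost without replicate 1 of IDE196 (0.61, adjusted p = 0.114) or replicate 6 of DMSO at 4 h (0.75, adjusted p = 0.0642), and 1.25 (SE 0.21, adjusted p = 6.34e-05) at 24 h. The 4 h value also missed the threshold by limma-voom (0.69, adjusted p = 0.0542), in a fit of only the 6 libraries compared (0.79, adjusted p = 0.0506) and in one fit of all 48 (0.79, adjusted p = 0.161).

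TFEC, the family member known mainly from macrophages, had 0 reads in 24 of the 48 libraries and more than 3 reads in 10. It did not pass the filter on low counts in any fit, so 4 of the 5 genes were tested. Its highest count was 27 reads, or 1.25 CPM, in MEL202 with FHT-1015 at 24 h, where the libraries held 8, 11 and 27 reads against 2, 7 and 7 in DMSO. Without the filter the log2 fold change there was 1.60 (SE 0.97, adjusted p = 0.426), a difference not detectable at this depth. Of the TFEC comparisons fitted without the filter, the one called by edgeR was the DMSO level in MEL202 minus 92-1 (2.61, SE 0.96, adjusted p = 0.0304). It rests on 0 to 7 reads a library in MEL202 and 0 or 1 in 92-1, so the fitted size depends on the prior count.

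**Figure D2:**
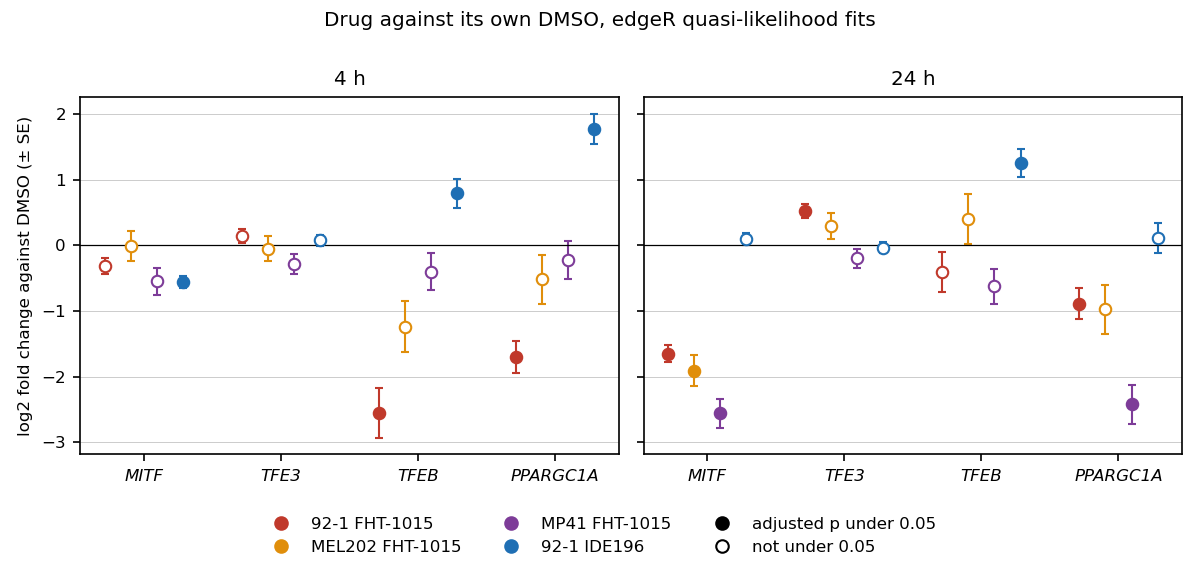
Log2 fold change against the matching DMSO libraries at 4 h (left) and 24 h (right) for the 4 genes tested, with SE; filled points have an adjusted p under 0.05. At 24 h MITF is filled and below 0 in the 3 lines with FHT-1015 and open near 0 with IDE196, and at 4 h TFEB and PPARGC1A in 92-1 lie on opposite sides of 0 for the 2 drugs.

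As a share of the family's summed FPKM, MITF made up 88.1% ± 2.17 of 92-1 DMSO at 24 h and 63.3% ± 3.31 with FHT-1015 (SD, n = 3). In MEL202 the share went from 81.8% to 49.2%, and in MP41 from 75.5% to 38.9%. TFE3 took most of the rest, with 11.1% in DMSO and 35.4% with the drug in 92-1, 16.7% and 46.3% in MEL202, and 23.3% and 58.9% in MP41. So with FHT-1015 at 24 h TFE3 RNA was above MITF RNA per length in MP41 and close to it in MEL202, although by edgeR TFE3 itself was called higher in 92-1 and in neither of those lines, and a larger share need not be a higher level. TFEB stayed under 5% in every group mean. With IDE196 the MITF share was 83.2% at 4 h against 88.8% in DMSO, and 90.3% against 90.2% at 24 h.

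**Figure D3:**
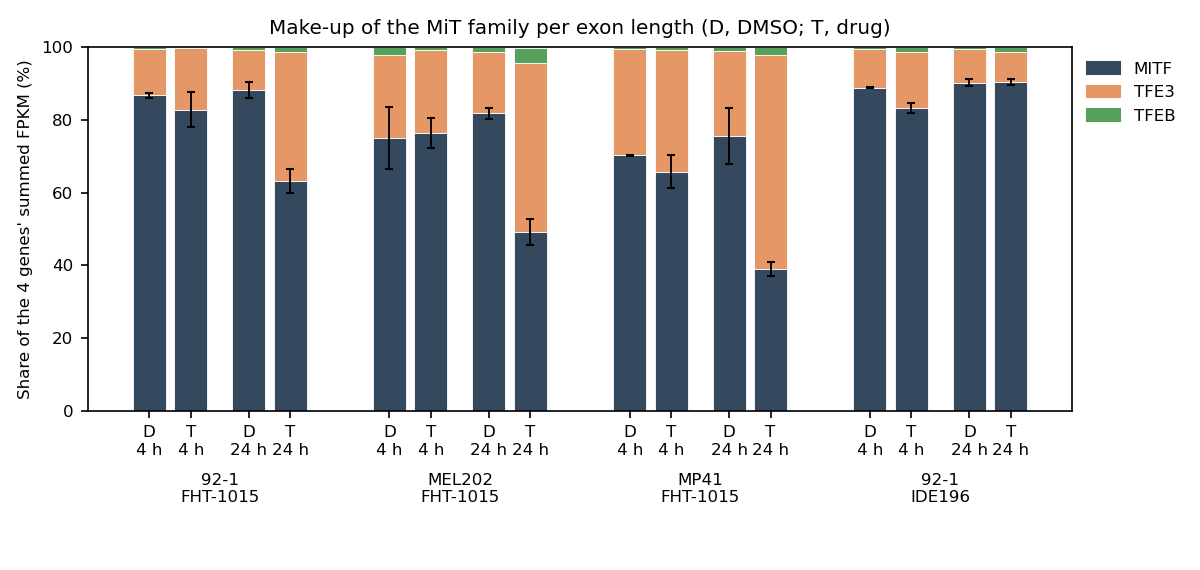
Mean share (%) of each gene in the summed FPKM of MITF, TFE3, TFEB and TFEC in each of the 16 groups (D, DMSO; T, the drug named below), with the SD of the MITF share (n = 3); TFEC is too low to draw. The MITF part shrinks with FHT-1015 at 24 h in the 3 lines, to 38.9% in MP41, and not with IDE196 at 24 h.

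By edgeR PPARGC1A was called lower with FHT-1015 early and late in 92-1 and late in MP41, while MEL202 missed the threshold. In 92-1 at 4 h DMSO held 3.56, 3.61 and 4.07 CPM and FHT-1015 1.35, 1.12 and 0.880 CPM. At 24 h DMSO held 3.59, 3.21 and 3.49 CPM and FHT-1015 1.28, 1.71 and 2.33 CPM. Treated and DMSO libraries did not overlap at either time. The log2 fold change was -1.69 (SE 0.24, adjusted p = 8.49e-05) at 4 h, a 3.24-fold fall, and -0.89 (SE 0.24, adjusted p = 0.00486) at 24 h. Without the library holding liver genes the 4 h value was -1.68 (adjusted p = 0.0008). The difference between the times, 0.81, did not pass the threshold (adjusted p = 0.0684).

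In MEL202 no change of PPARGC1A was called by edgeR at either time. At 4 h DMSO held 4.67, 6.33 and 2.59 CPM and FHT-1015 4.40, 1.67 and 3.44 CPM, and the groups overlapped (-0.52, adjusted p = 0.819). That value ranged from -0.83 without FHT-1015 replicate 1 to -0.19 without DMSO replicate 2 at 4 h, and limma-voom gave -0.21. The DMSO libraries at 24 h held 5.22, 7.70 and 8.86 CPM and the treated libraries 3.56, 3.54 and 3.61 CPM, all lower. The log2 fold change of -0.97 (SE 0.37) had an adjusted p of 0.0881, and it was called in a fit of only the 6 libraries compared (-0.98, adjusted p = 0.0072) and by limma-voom (-1.13, adjusted p = 4.44e-05). In a joint fit of the lines the 24 h effect in MEL202 minus that in 92-1 was -0.12 (SE 0.46, edgeR adjusted p = 0.968).

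MP41 held the most PPARGC1A and lost the most of it. At 4 h DMSO held 9.17, 11.2 and 5.63 CPM and FHT-1015 6.74, 9.06 and 6.35 CPM (-0.22, adjusted p = 1). At 24 h DMSO held 21.2, 17.5 and 25.0 CPM and FHT-1015 3.25, 4.99 and 2.85 CPM. The treated libraries at 24 h lay below both the 24 h and the 4 h DMSO libraries. On the log2 scale the fall was -2.42 (SE 0.29, adjusted p = 3.49e-05), a 5.36-fold fall. DMSO alone was higher at 24 h than at 4 h by 1.24 (adjusted p = 0.0389), and TFEB by 1.12 (adjusted p = 0.0483), where 2.59% of all genes were called (0.344% in 92-1, 0% in MEL202 and 0.266% in the IDE196 set), but when single libraries were left out these calls held in only 4 and 2 of 12 fits. In the other experiments no member was called between DMSO at 24 h and 4 h by edgeR with the filter on low counts (without it PPARGC1A in the IDE196 set was, at 0.74 and an adjusted p of 0.0262), with 1 of 12 values at an unadjusted p under 0.05 and none called by DESeq2 or limma-voom.

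With IDE196, PPARGC1A rose at 4 h and was not called at 24 h. DMSO held 4.02, 2.07 and 3.33 CPM and IDE196 8.08, 11.1 and 12.5 CPM, without overlap, a log2 fold change of 1.78 (SE 0.23, adjusted p = 3.83e-05). The DMSO libraries at 24 h held 4.48, 5.00 and 6.38 CPM and IDE196 5.07, 5.49 and 6.30 CPM, with full overlap (0.12, adjusted p = 0.681). The effect at 24 h was lower than that at 4 h by 1.66 on the log2 scale (SE 0.32, adjusted p = 8.44e-04). The IDE196 effect on MITF moved the other way with time, by 0.66 (adjusted p = 5.67e-04).

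Read against all genes, the number of members called was 2 of 4 in 92-1 with FHT-1015 at 4 h, where 29.5% of genes tested were called, and 3 of 4 at 24 h, where 60.6% were. In MEL202 it was 0 of 4 at 4 h by edgeR (0.679% of all genes), with 1 at an unadjusted p under 0.05 and 0 by DESeq2 and by limma-voom, and 1 of 4 at 24 h (18.8%), or 3 by limma-voom. In MP41 it was 0 of 4 at 4 h by edgeR (0.225%), with 1 at an unadjusted p under 0.05, 0 by DESeq2 and 1 by limma-voom, and 2 of 4 at 24 h (36.1%), or 4 by limma-voom. With IDE196 it was 3 of 4 at 4 h (16.2%) and 1 of 4 at 24 h (58.1%). With 4 genes tested, these counts are not read as particular to the family. Replicates spread less in 92-1 with FHT-1015 (edgeR coefficient of variation 0.117) than in MEL202 (0.294) and MP41 (0.217). A change called in one line and not in another is therefore not by itself a difference between lines.

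The fall of MITF deepened between the times in each line. The 24 h effect was below the 4 h effect by -1.33 in 92-1 (SE 0.18, adjusted p = 2.57e-05), -1.89 in MEL202 (SE 0.32, adjusted p = 0.00352) and -2.01 in MP41 (SE 0.30, adjusted p = 5.07e-04). For PPARGC1A in MP41 this difference was -2.20 (adjusted p = 0.00226). Among all genes 45.5%, 6.89% and 18.6% were called for a difference between times in the 3 lines, and 30.7% with IDE196.

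The lines differed in 3 of the 4 members at 24 h, where 12% of all genes were called, and by the edgeR test among the 3 lines in none at 4 h (1.38%), with 2 at an unadjusted p under 0.05 and 1 by DESeq2 and by limma-voom. The span of the 24 h effect over the lines was 1.00 for MITF (adjusted p = 0.0418), 1.62 for PPARGC1A (adjusted p = 0.0161) and 0.82 for TFE3 (adjusted p = 0.0176). In the joint fit of 36 libraries MP41 differed from 92-1 by -1.0 for MITF (SE 0.29, adjusted p = 0.0241), by -1.62 for PPARGC1A (SE 0.46, adjusted p = 0.0223) and by -0.82 for TFE3 (SE 0.21, adjusted p = 0.00948). MP41 also differed from MEL202 for PPARGC1A (-1.50, adjusted p = 0.0327). The MITF difference among lines held in 20 of the 36 fits with a single library left out. Leaving out MP41 DMSO replicate 3 at 24 h, the library with 589.8 CPM, gave a span of 0.74 (adjusted p = 0.129). The spans of PPARGC1A and TFE3 were each called in 34 of those 36 fits. For PPARGC1A the call was lost without MP41 FHT-1015 replicate 1 (1.55, adjusted p = 0.0524) or replicate 3 (1.45, adjusted p = 0.0714) at 24 h. For TFE3 it was lost without MP41 DMSO replicate 2 (0.67, adjusted p = 0.0786) or FHT-1015 replicate 3 (0.79, adjusted p = 0.0524) at 24 h, and without the filter on low counts (0.72, adjusted p = 0.337). For TFEB at 4 h the test among the 3 lines gave a span of 2.15 (adjusted p = 0.106; 2.14 and 0.245 without the library holding liver genes). DESeq2 (2.17, adjusted p = 0.0365) and limma-voom (2.16, adjusted p = 0.0341) called it. As a single pair by edgeR, MP41 minus 92-1 was called at 2.15 (SE 0.55, adjusted p = 0.0365) and MEL202 minus 92-1 was not (1.31, adjusted p = 0.390). The single pairs were not refitted without the library holding liver genes.

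In 92-1 the effects of the 2 drugs, each against its own DMSO, were far apart. At 4 h the FHT-1015 effect minus the IDE196 effect was -3.47 for PPARGC1A (SE 0.34, adjusted p = 1.97e-08) and -3.35 for TFEB (SE 0.43, adjusted p = 1.38e-06). MITF gave 0.24 (SE 0.16, adjusted p = 0.296), and TFE3 0.06 (adjusted p = 0.793). Without the library holding liver genes these were -3.46 for PPARGC1A (adjusted p = 2.40e-07) and -3.35 for TFEB (adjusted p = 1.15e-05). MITF then gave 0.23 (adjusted p = 0.391) and TFE3 0.13 (adjusted p = 0.593). At 24 h the difference was -1.75 for MITF (SE 0.16, adjusted p = 1.26e-09), -1.66 for TFEB (adjusted p = 7.63e-04), 0.55 for TFE3 (adjusted p = 0.00234) and -1.005 for PPARGC1A (SE 0.34, adjusted p = 0.0237). The members called were 2 of 4 at 4 h and 4 of 4 at 24 h, against 24.6% and 33.0% of all genes. The PPARGC1A difference at 24 h was lost without any 1 of 4 libraries (-0.81 to -0.94, adjusted p = 0.0538 to 0.0857).

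PPARGC1B, which encodes the related coactivator PGC-1 beta, was more abundant than PPARGC1A per length in every DMSO library, and its fall with FHT-1015 at 24 h was called in the 3 lines. Per length it stood at 12.5 ± 0.91 FPKM in 92-1 DMSO at 24 h (SD, n = 3). At 24 h DMSO held 174.6, 154.1 and 154.5 CPM in 92-1 and FHT-1015 9.64, 12.7 and 15.8 CPM. In MEL202 the values were 27.1, 55.4 and 38.2 CPM in DMSO against 4.21, 1.91 and 2.55 CPM, and in MP41 94.0, 104.2 and 69.5 CPM against 7.43, 5.89 and 6.23 CPM. None of the treated libraries came near DMSO. In MEL202 with FHT-1015 at 24 h PPARGC1B was at 0.224 FPKM and PPARGC1A at 0.329 FPKM (means, n = 3), the reverse of the order in DMSO. The log2 fold changes were -3.61, -3.76 and -3.67 (adjusted p = 1.13e-10, 1.35e-04 and 1.24e-07). At 4 h the gene had fallen in 92-1 (-1.42, adjusted p = 3.59e-06; -1.51 and 2.78e-05 without the library holding liver genes). IDE196 also lowered it, by -0.81 at 4 h (adjusted p = 4.09e-05) and -1.50 at 24 h (adjusted p = 3.55e-09), while PPARGC1A at 4 h went up.

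Among 14 genes known to regulate MITF transcription, 13 were tested in 92-1 and MEL202 and 12 in MP41. With FHT-1015 at 24 h, 5 were higher and 4 lower in 92-1, 2 and 4 in MEL202, and 3 and 5 in MP41. Among all genes 29.2%, 8.69% and 17.4% were higher and 31.4%, 10.1% and 18.7% lower. In MEL202 limma-voom called 11 where edgeR called 6. SOX10, which with PAX3 activates the MITF-M promoter, fell in the 3 lines at 4 h and at 24 h. Its log2 fold changes were -4.94, -3.04 and -2.26 at 4 h and -4.69, -5.43 and -4.74 at 24 h in 92-1, MEL202 and MP41. SOX10 overlaps POLR2F, and with reads of either strand counted apart and added its values were -4.93, -3.03 and -2.26 at 4 h and -4.68, -5.45 and -4.70 at 24 h. BHLHE41 (-2.63, -2.57 and -1.87) and BHLHE40 (-1.18, -2.04 and -1.43), related repressors that act on E-boxes, fell at 24 h, and SOX9, a SOX10 relative, rose by 1.21, 0.91 and 2.23. In the 3 lines together 3 of 12 regulators were lower and 1 higher at 24 h, beside 7.65% and 5.04% of all genes. With IDE196 at 24 h, 9 regulators were higher and 1 lower (28.7% and 29.4% of all genes), among them FOXD3 (1.20) and TFAP2A (1.17) higher and POU3F2 (-3.19) lower. SOX10 rose by 0.67 (adjusted p = 1.22e-06). SMARCA4 and SMARCA2, the genes of the inhibited ATPases, were not called with FHT-1015 in MEL202 or MP41, and in 92-1 at 24 h they rose by 0.25 and 0.73. In 92-1 SMARCA4 also rose with FHT-1015 at 4 h (0.35, adjusted p = 0.00665, and 0.0222 without the library holding liver genes). With IDE196 SMARCA2 rose at 4 h (0.31, adjusted p = 0.0416) and 24 h (0.66, adjusted p = 2.36e-05) while SMARCA4 fell at 24 h (-0.40, adjusted p = 6.09e-04). At 4 h in 92-1, POU3F2 (1.80) and FOXD3 (1.71), which can repress MITF, rose with FHT-1015, among 4 higher and 4 lower (12.9% and 16.7% of all genes). The largest falls there were those of SOX10 and of BHLHE41, itself one of the repressors named above.

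Of 28 genes listed as MITF targets, 27 were tested. With FHT-1015 at 24 h, 23 were lower and 2 higher in 92-1, 19 lower and 0 higher in MEL202, and 21 lower and 0 higher in MP41. Among all genes 31.4%, 10.1% and 18.7% were lower and 29.2%, 8.69% and 17.4% higher in the same comparisons. The list's median log2 fold change was -2.58, -1.59 and -1.35, against all-gene medians within 0.07 of 0. In the 3 lines together 18 of 27 were lower, beside 7.65% of the 13677 genes tested in each line. TRPM1, a channel of melanocytes, fell with log2 fold changes of -5.48, -5.33 and -4.61, BIRC7, an inhibitor of apoptosis, by -4.06, -4.34 and -3.21, and CAPN3 by -3.68, -2.94 and -3.17. BEST1 (-4.93, -6.23 and -4.44) shares bases with FTH1. When reads of either strand were counted apart and added, BEST1 gave log2 fold changes of -0.74, 0.15 and 0.07, so its value depends on how the overlap was counted. The counts of lower targets above include BEST1. The 8 lineage markers, most of which (such as TYR, PMEL and DCT) are also in this list, summed to 18806 to 22738 CPM in 92-1 DMSO at 24 h and 4585 to 5274 CPM with FHT-1015; the part of this in the list's counts was not tested.

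By edgeR, MITF targets were called at 4 h with FHT-1015 in 92-1 and in neither of the other lines. In 92-1, 17 targets were lower and 3 higher (16 and 1 without the library holding liver genes), where 16.7% of all genes were lower and 12.9% higher. IRF4 (-3.68) and CEACAM1 (-2.42) fell most, and SNAI2 (1.42) and DICER1 (0.45) rose; without that library DICER1 was not called (0.40, adjusted p = 0.0572). In MEL202 and MP41 at 4 h 0 were called by edgeR (lower 0.522% and 0.154%, higher 0.157% and 0.0708% of all genes), with 4 and 2 at an unadjusted p under 0.05, 2 and 0 by DESeq2 and 1 and 3 by limma-voom. With IDE196 at 4 h 4 targets were lower and 2 higher, beside 9.30% and 6.89% of all genes. At 24 h 10 were lower and 8 higher, with IRF4 (4.84) and DCT (3.17) the largest rises and BIRC7 (-1.33) and CEACAM1 (-1.22) the largest falls. The median was -0.05, and 29.4% of all genes were lower and 28.7% higher.

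**Figure D4:**
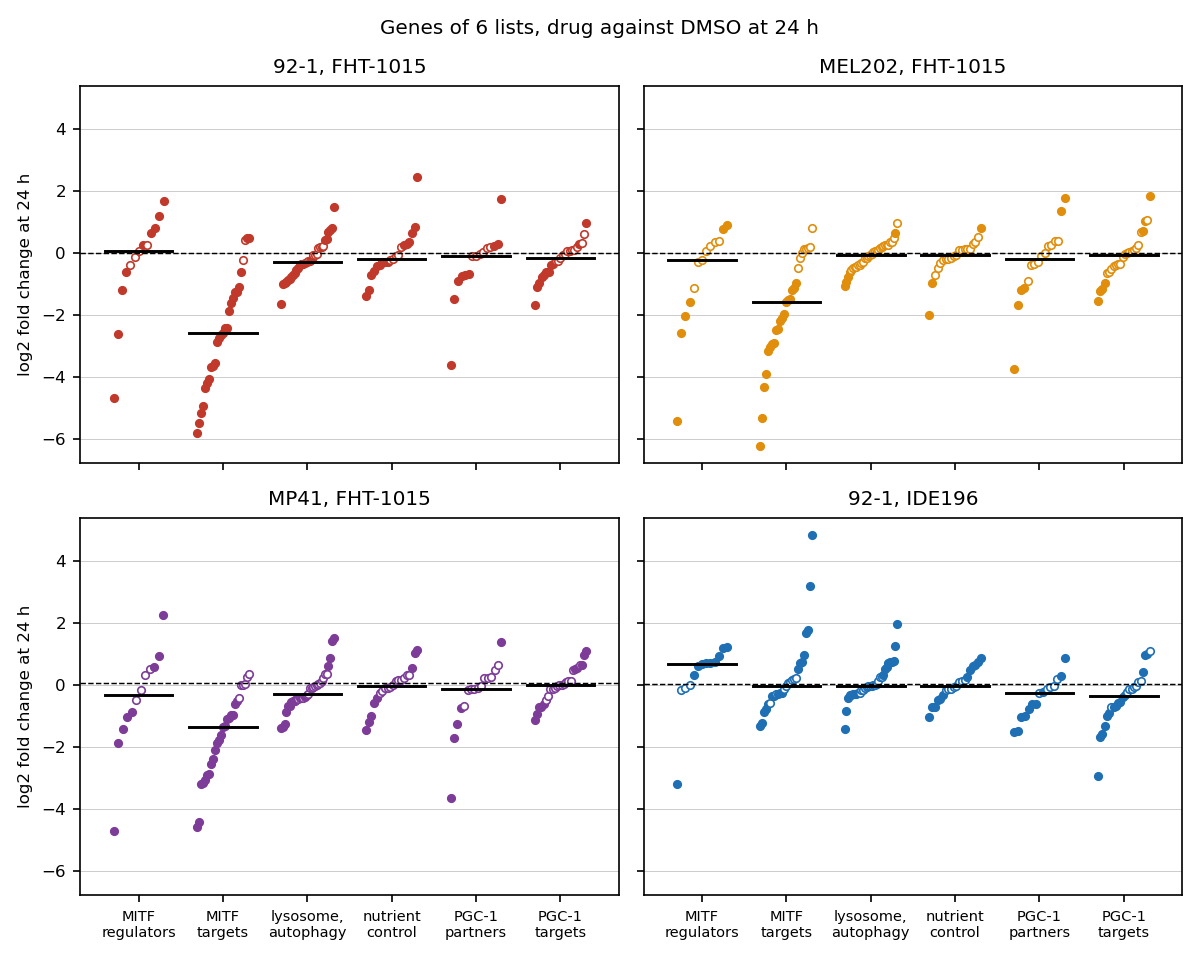
Log2 fold change at 24 h of the genes of 6 lists in each experiment, ordered within a list; filled points have an adjusted p under 0.05, solid lines are list medians and the dashed line the median of all genes tested. The MITF targets lie mostly below 0 in the 3 FHT-1015 panels, with medians of -2.58, -1.59 and -1.35, and on both sides of 0 with IDE196.

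All 32 lysosome and autophagy genes listed, known targets of TFEB and TFE3, were tested. With FHT-1015 at 24 h, 18 were lower and 7 higher in 92-1, 4 and 1 in MEL202, and 12 and 4 in MP41, with medians of -0.28, -0.05 and -0.32. The chloride transporter CLCN7 (-0.93, -1.07 and -1.37) and the proton pump subunits ATP6V1B2 (-1.63, -0.77 and -0.90) and ATP6V1H (-1.01, -0.63 and -0.39) fell in the 3 lines, and the protease gene CTSF rose (0.81, 0.64 and 0.87). These were 3 lower and 1 higher of 32, beside 7.65% and 5.04% of all genes tested in the 3 lines. In 92-1 at 4 h 6 were lower and 6 higher (16.7% and 12.9% of all genes), ATP6V1B2 (-1.16) and SQSTM1 (-0.90) falling and GABARAPL1 (0.68) and MCOLN1 (0.59) rising. With IDE196 at 24 h 9 were higher and 9 lower (28.7% and 29.4% of all genes); CTSF (1.97) and GABARAPL1 (1.26) rose most and GLA (-1.44) and CTSA (-0.84) fell most. Among all genes 31.4%, 10.1% and 18.7% were lower and 29.2%, 8.69% and 17.4% higher with FHT-1015 at 24 h in the 3 lines. In MEL202 limma-voom called 17 of these genes where edgeR called 5.

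The 20 genes listed for nutrient control of the MiT factors were all tested, without sorting them by the direction of that control. With FHT-1015 at 24 h, 6 were higher and 9 lower in 92-1, 1 and 2 in MEL202, and 3 and 5 in MP41, beside 29.2%, 8.69% and 17.4% of all genes higher and 31.4%, 10.1% and 18.7% lower. By limma-voom 9 were called in MEL202 and 14 in MP41, where edgeR called 3 and 8. RRAGD, a Rag GTPase that is itself a MiT target, fell by -1.38, -2.01 and -1.47, and FNIP2, a partner of folliculin, by -1.18, -0.97 and -1.01. PPP3CA, a catalytic subunit of calcineurin, rose by 2.46, 0.81 and 1.01. In the 3 lines together 2 of 20 were lower and 1 higher, beside 7.65% and 5.04% of all genes. In 92-1 at 4 h FNIP2 (-1.62) and RRAGD (-0.48) had fallen while PPP3CB (0.54) and FLCN (0.49), the folliculin gene, had risen, among 5 higher and 3 lower (12.9% and 16.7% of all genes). Without the library holding liver genes 2 were higher and 3 lower, and FLCN was not called (0.42, adjusted p = 0.0612). With IDE196 at 24 h 6 were higher and 6 lower (28.7% and 29.4% of all genes), PPP3CA (0.86) and RRAGC (0.75) rising and XPO1 (-1.05), the nuclear exporter, and FNIP2 (-0.73) falling.

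Of 17 partners of PGC-1 coactivators, 15 or 16 were tested. With FHT-1015 at 24 h 6 were lower and 3 higher in 92-1, 4 and 2 in MEL202, and 4 and 1 in MP41, where all genes gave 31.4%, 10.1% and 18.7% lower and 29.2%, 8.69% and 17.4% higher. By limma-voom 13 were called in MEL202 and 11 in MP41, where edgeR called 6 and 5. Besides PPARGC1B, PPRC1, the third PGC-1 family gene, fell by -1.48, -1.68 and -1.71, and ESRRA, the nuclear receptor through which PGC-1 alpha acts on mitochondrial genes, by -0.76, -1.14 and -1.27. In the 3 lines together 3 of 15 partners were lower and 0 higher, beside 7.65% and 5.04% of all genes. At 4 h in 92-1, PPARA (-1.47) fell and TFB1M (0.89) and GABPA (0.39) rose, among 4 lower and 4 higher (16.7% and 12.9% of all genes). IDE196 at 24 h lowered 8 and raised 2 (29.4% and 28.7% of all genes), with PPRC1 at -1.54 and PPARA at 0.85. Of 24 mitochondrial and metabolic genes listed as PGC-1 targets, FHT-1015 at 24 h lowered 9 and raised 2 of 23 in 92-1, lowered 4 and raised 3 of 24 in MEL202, and lowered 5 and raised 5 of 24 in MP41, with medians of -0.15, -0.08 and -0.02, shares to be read against the same all-gene percentages. In MEL202 limma-voom called 16 where edgeR called 7. Of these only IDH3A, a subunit of the citric acid cycle, was lower in the 3 lines (-1.68, -1.18 and -0.94), 1 of the 23 tested in each line beside 7.65% of all genes. IDE196 at 24 h lowered 12 and raised 3, again beside 29.4% and 28.7% of all genes, with PDK4 (-2.96) and VEGFA (-1.70) falling and SIRT3 (0.98) and CPT1A (0.97) rising. At 4 h in 92-1, FHT-1015 lowered 4 and raised 2 of 23 PGC-1 targets (16.7% and 12.9% of all genes). IDE196 at 4 h lowered 3 and raised 0 of 24 (9.30% and 6.89% of all genes).

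By Pearson correlation of log2 CPM over the 48 libraries, centred within each experiment, the profiles most like MITF among 10488 protein-coding genes were those of RHOJ (0.92), KCNAB2 (0.91), SLC24A5 (0.90) and ABCB5 (0.90). With FHT-1015 at 24 h RHOJ fell by -3.73, -3.56 and -3.33 and ABCB5 by -4.43, -3.68 and -5.71. PPARGC1A was most like MBP (0.81), BTN2A2 (0.78), RTKN (0.74) and SHC4 (0.73), and MBP fell by -1.56, -1.62 and -2.35. TFEB was most like SLC26A11 (0.86), KIAA1522 (0.84), APBB1 (0.84) and KLHL26 (0.82). TFE3 had the weakest likeness, to STK11IP (0.75), FBRS (0.71), BICRA (0.71) and PTPA (0.70). Libraries of a group share their treatment, so these values are descriptions.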

How the data were processed

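Poly-A RNA from 48 cultures of 3 uveal melanoma lines had been sequenced without strand information, per the labels' protocols. The authors deposited raw read counts per gene, unstranded and per strand; the submitters' processing notes name hg38 and limma, and the aligner and annotation version are not given in the sources used here. The unstranded counts were used. Of 58870 genes, 58597 were found in GENCODE 29, which gave symbols and exon lengths; 92 spike-in rows held 0 reads and were left out. Counts sum transcripts of a gene, so isoforms were not resolved.

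Each experiment of 12 libraries was fitted with edgeR 4.0.16 (R 4.3.3; TMM factors, filterByExpr, quasi-likelihood F-test), with Benjamini-Hochberg adjustment over all genes tested and calls at an adjusted p under 0.05. Differences among lines and between drugs came from joint fits of 36 and 24 libraries. Standard errors were derived from the F statistic. Alternatives used DESeq2 1.42.0, limma 3.58.1 (voom), other scaling, other filters, other sets of libraries, the stranded columns and leaving out each library. The fits were tested on simulated data.

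The members and gene lists were chosen with earlier results of these data known. Named list genes were, for FHT-1015 at 24 h, up to 4 genes called with 1 sign in all 3 lines, ranked by their smallest change, and, for IDE196 at 24 h and 92-1 at 4 h, up to 2 largest rises and 2 largest falls, with SOX10, PPARGC1B, SMARCA4 and SMARCA2 in addition; likeness named 4 genes a member. One marker of another cell type is not reported here, so the marker sums do not cover the whole list.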

Additional observations from a re-analysis of the deposited data

Results flagged for a closer look

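Effects that differed between times, lines or drugs by a test of the difference itself (edgeR, adjusted p) were as follows. Between 24 h and 4 h, the FHT-1015 effect on MITF differed by -1.33 in 92-1 (2.57e-05), -1.89 in MEL202 (0.00352) and -2.01 in MP41 (5.07e-04) on the log2 scale. TFEB in 92-1 went the other way, by 2.15 (0.00219), and PPARGC1A in MP41 differed by -2.20 (0.00226). With IDE196 the same difference was 0.66 for MITF (5.67e-04) and -1.66 for PPARGC1A (8.44e-04). Among the lines at 24 h the FHT-1015 effect spanned 1.00 for MITF (0.0418), 1.62 for PPARGC1A (0.0161) and 0.82 for TFE3 (0.0176). Between the drugs in 92-1 the effects at 4 h differed by -3.47 for PPARGC1A (1.97e-08) and -3.35 for TFEB (1.38e-06). At 24 h they differed by -1.75 for MITF (1.26e-09), -1.005 for PPARGC1A (0.0237), -1.66 for TFEB (7.63e-04) and 0.55 for TFE3 (0.00234).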

How the results depend on the processing

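For the drug effects on the 4 genes tested, 259 of 280 values under other settings kept their direction and side of the threshold, 11 gained a call, 4 lost one and 6 changed sign; for differences and levels it was 363, 12, 4 and 5 of 384. Of 576 counts of list genes 529 stayed within 1.5 times and 47 did not, and with 1 library left out 1047 of 1152 did and 105 did not; by limma-voom 26 of 96 moved. Adjusted p follows each value. With limma-voom, MITF was -0.31 (0.00655) in 92-1 and -0.52 (0.00962) in MP41 at 4 h with FHT-1015, and 0.061 in MEL202. TFEB gave -0.53 (0.0326) in MP41 at 24 h, 0.69 (0.0542) with IDE196 at 4 h, and spans among lines of 2.16 (0.0341) and 0.85 (0.0160). TFE3 gave 0.25 (0.0247) in MEL202 and -0.25 (0.0230) in MP41 at 24 h, 0.53 (0.00173) between times in 92-1 and -0.037 between drugs at 4 h. PPARGC1A gave 0.82 (0.0247) between times in 92-1 and -1.13 (4.44e-05) in MEL202 at 24 h, and the MITF level in MP41 minus MEL202 was -0.064. Without the filter, MITF in 92-1 at 4 h was -0.30 (0.0247), TFEB between times in MEL202 1.60 (0.0484) and the TFE3 span 0.72 (0.337). By DESeq2, TFEB between times in MEL202 was 1.64 (0.0338), its 4 h span 2.17 (0.0365), and TFE3 between times in 92-1 0.39 (0.0475). With library size alone, MITF in MEL202 at 4 h was 0.039, TFE3 0.0096 there and 0.0092 with IDE196 at 24 h, TFE3 between times in 92-1 0.42 (0.0449), and MP41 minus 92-1 in DMSO 0.061 for MITF and 0.57 (0.0369) for TFEB. In fits of only the libraries compared, MITF in MEL202 at 4 h was 0.0029, TFEB with IDE196 at 4 h 0.79 (0.0506) and PPARGC1A in MEL202 at 24 h -0.98 (0.0072). In a fit of all 48 libraries, IDE196 at 4 h gave MITF -0.55 (0.0742) and TFEB 0.79 (0.161), TFEB in MEL202 at 4 h was -1.21 (0.0130), TFE3 with IDE196 at 24 h 0.012 and PPARGC1A in MEL202 at 24 h -0.99 (0.00883). With the stranded columns the MITF span at 24 h was 0.98 (0.0508). Alternatives for the DMSO comparisons were chosen after seeing the data: between times, limma-voom gave MITF 0.26 (0.0415) in MP41 and TFEB 0.24 in MEL202, the stranded columns TFEB 1.09 (0.0537) and TFE3 -0.013 in MP41, no filter PPARGC1A 0.74 (0.0262) in the IDE196 set, and library size 0.14 (0.104) for TFE3 between the DMSO sets. The replicate numbers did not pair the libraries (7 of 18 correlations over 0.1, from -0.33 to 0.52); with a replicate block MITF in 92-1 at 4 h was -0.34 (0.0177), and no other call on a drug effect in the FHT-1015 experiments changed. The IDE196 arms share no replicate numbers.

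With 1 library left out, drug effects with FHT-1015 at 4 h ranged from -0.468 to -0.179 for MITF in 92-1, -0.205 to 0.177 for MITF and -0.145 to 0.162 for TFE3 in MEL202, and -0.457 to 0.0103 for PPARGC1A in MP41. At 24 h they ranged from -0.841 to -0.381 for TFEB and -0.398 to -0.0746 for TFE3 in MP41, and -1.16 to -0.823 for PPARGC1A in MEL202. With IDE196 they ranged from 0.606 to 0.950 for TFEB at 4 h and -0.103 to 0.00658 for TFE3 at 24 h. Differences between times ranged from 1.18 to 1.96 for TFEB in MEL202, -0.456 to 0.0173 for TFEB and -0.124 to 0.211 for TFE3 in MP41, and 0.297 to 0.481 for TFE3 and 0.568 to 1.02 for PPARGC1A in 92-1. Spans among lines ranged from 0.742 to 1.14 for MITF, 0.671 to 0.956 for TFE3 and 1.45 to 1.90 for PPARGC1A at 24 h, and 1.91 to 2.32 for TFEB at 4 h. Drug differences ranged from -0.0497 to 0.129 for TFE3 at 4 h and -1.24 to -0.807 for PPARGC1A at 24 h. DMSO levels in MP41 ranged from -0.183 to 0.0110 (MITF) and 0.337 to 0.652 (TFEB) against 92-1, and -0.00663 to 0.221 and -0.900 to -0.527 against MEL202. Between DMSO times they ranged from -0.0155 to 0.192 for MITF in 92-1, -0.525 to 0.244 for TFEB and -0.260 to 0.0463 for TFE3 in MEL202, and 0.868 to 1.33 for TFEB, -0.117 to 0.211 for TFE3 and 1.00 to 1.47 for PPARGC1A in MP41. Values not called in any of these fits moved as well, from -0.544 to -0.232 for TFEB in MP41 at 4 h, 0.0174 to 0.128 for MITF and 0.00533 to 0.273 for PPARGC1A with IDE196 at 24 h, 0.102 to 0.381 for the MITF drug difference at 4 h, and -0.277 to -0.0995 for the MITF level in MEL202 minus 92-1. The cause of these shifts was not tested. TFEB, PPARGC1A and TFEC had the fewest reads of the members, so counting error is widest for them.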
